A study of Rattus norvegicus with 2 samples.

Results

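The genes described here are 6 widely used target genes of the glucocorticoid receptor, Fkbp5, Tsc22d3, Sgk1, Hsd11b1, Zbtb16 and Errfi1, taken from a list of symbols and followed through every probe set that the platform's annotation assigns to exactly 1 gene. A probe set is a group of array probes read as 1 signal, and some probe sets match several genes. In this way 6 probe sets for 5 of the 6 genes were found among 31042 probe sets and 14217 genes: 2 for Fkbp5 and 1 each for Tsc22d3, Sgk1, Hsd11b1 and Errfi1. No probe set was matched to Zbtb16, which was not analysed here. All 6 probe sets counted as measured, that is, their mean log2 signal over the arrays was at or above the median of all probe sets.

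The RNA came from livers of male rats of the outbred Wistar strain, aged 2 months and weighing 250 to 300 g. All rats had been fasted for 18 h. The fasted group received no fat, and the olive oil group was given 5 ml of olive oil by mouth, equal to 16 ml per kg, and was killed 4 h later. Each group is 1 Affymetrix array, and the labels state neither how many livers contributed to it nor the hour of killing. Every difference below is therefore the signal of 1 array against that of another, without a replicate check, a standard deviation over animals or a p-value.

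Glucocorticoids, corticosterone in the rat, are adrenal steroids that help the liver to keep up glucose output during fasting and stress. They bind the glucocorticoid receptor, a ligand-activated transcription factor held in the cytoplasm by HSP90 chaperones and their cochaperones, and the receptor then enters the nucleus and activates or represses genes from DNA elements that it binds as a dimer. Among its targets are genes that feed back on the hormone signal and genes that restrain growth factor, inflammatory or ion transport pathways.

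The median signal was 42.5 when fasted and 44.7 after olive oil. With the top and bottom 2% of probe sets trimmed, the mean signal of each was 200.1, a value that the scaling of the deposited data appears to set. Hybridization controls differed by a median of 0.03 on the log2 scale over 18 probe sets. Of 24 poly-A control probe sets 21 read lower after olive oil (median log2 difference -0.22), and the beta-actin 3' to 5' signal ratio, a sign of RNA integrity, was 2.63 for fasted and 3.20 for olive oil. The part of these in the results was not tested. Among 7 measured hepatocyte marker genes every difference was below 1.5-fold, as it was for 7409 of all 9209 measured genes. Alb read 17154 and 17984.

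The promoters of the gene with the highest and of the gene with the lowest difference, Fkbp5 and Sgk1, and that of Tsc22d3, whose difference lay between them, are shown because these genes are read as targets of 1 receptor. Each sequence holds the 250 bases before a transcription start in RefSeq's GRCr8 build, for Sgk1 and Tsc22d3 before the most downstream of 3 annotated starts. Capitals mark TATAAA or CCAAT on either strand.
Fkbp5 (chr20:6543556-6543805, minus strand): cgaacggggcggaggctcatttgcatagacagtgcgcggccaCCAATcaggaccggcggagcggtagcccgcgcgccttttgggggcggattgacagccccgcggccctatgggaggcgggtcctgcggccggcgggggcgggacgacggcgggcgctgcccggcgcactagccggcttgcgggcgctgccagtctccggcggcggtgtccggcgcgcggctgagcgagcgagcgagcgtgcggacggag
Sgk1 (chr1:24804832-24805081, minus strand): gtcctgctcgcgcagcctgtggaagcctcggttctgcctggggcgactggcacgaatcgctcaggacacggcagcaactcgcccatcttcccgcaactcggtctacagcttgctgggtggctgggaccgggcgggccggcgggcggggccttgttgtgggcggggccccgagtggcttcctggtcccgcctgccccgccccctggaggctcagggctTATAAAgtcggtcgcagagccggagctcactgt
Tsc22d3 (chrX:109010035-109010284, minus strand): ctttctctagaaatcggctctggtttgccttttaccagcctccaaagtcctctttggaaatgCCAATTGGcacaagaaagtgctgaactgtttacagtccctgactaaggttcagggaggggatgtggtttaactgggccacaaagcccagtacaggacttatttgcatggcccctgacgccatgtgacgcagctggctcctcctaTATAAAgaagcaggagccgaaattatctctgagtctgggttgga

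The sequence table held 8 windows of 300 bases, 250 before and 50 after a start, for 4 of the genes, with none for Hsd11b1 or Zbtb16. The hexamer of the glucocorticoid response element, AGAACA on either strand, was in none of the 8, against 20.7% of all 33469 windows in the table. The full element, searched as AGAACA, a spacer of 3 bases and TGTTCT, includes the hexamer and was also in none of them, against 0.0149% of all windows. Only exact letters were searched, and at so low a share its absence from 8 windows says little. The cAMP response element TGACGTCA was in none of the 8 and in 1.83% of all windows. TATAAA and CCAAT were added after the sequences were seen. TATAAA occurred in 4 of the 8 windows, 2 of Sgk1, 1 of Tsc22d3 and 1 of Errfi1, against 14.2% of all windows, and CCAAT in 3 of the 8, 1 each of Fkbp5, Tsc22d3 and Errfi1, against 37.5%. The Fkbp5 window held no TATAAA and had a G and C content of 77.0%, the highest of the 8, where the median of all windows was 51.7%. A match of letters describes the window and does not show a bound site, and the window leaves out introns and distant elements.

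The 5 target genes did not move together after olive oil. Fkbp5 was about 4-fold higher, Tsc22d3 and Errfi1 were between 1.25-fold and 1.32-fold higher, Hsd11b1 was nearly level, and Sgk1 was 1.96-fold lower. At a fixed size of 2-fold, which stands in for a test, 1 of the 5 genes was higher and none was lower. Of all 9209 measured genes, each represented by its brightest probe set, 3.21% were higher by 2-fold or more and 2.92% lower. Among probe sets, 2 of the 6 were at least 2-fold higher, both of Fkbp5, against 3.63% of 15521 measured probe sets. At 1.5-fold 1 gene was higher and 1 lower, Fkbp5 and Sgk1, against 9.44% and 10.1% of measured genes.

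**Figure D1:**
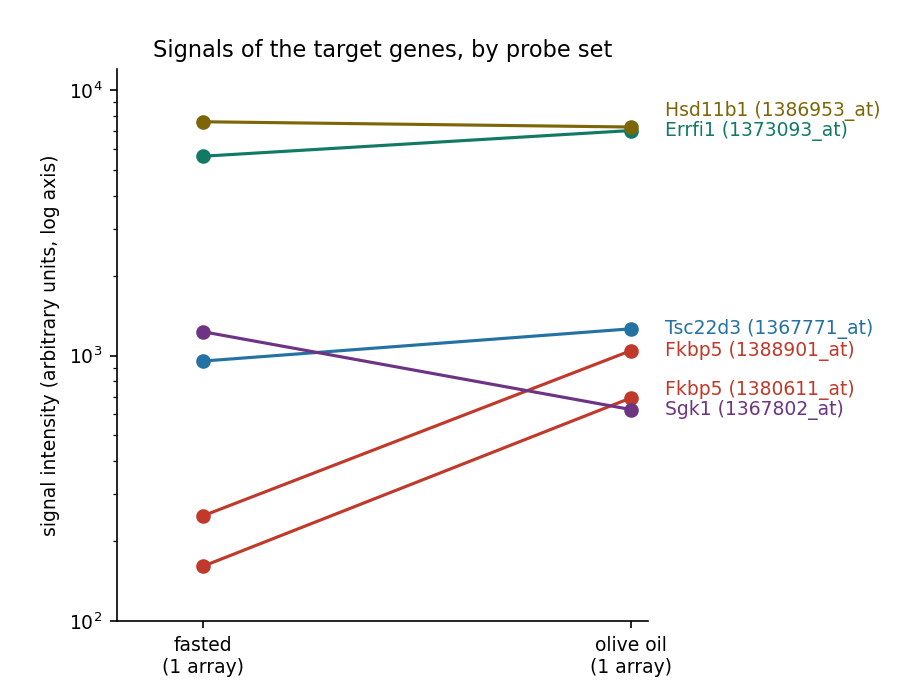
Signal intensity (arbitrary units, logarithmic axis) of each probe set in the fasted and the olive oil array, with 1 array per group and so no error bars; each line joins the 2 values of a probe set. The 2 Fkbp5 lines run upwards in parallel, from 160.6 and 248.7 to 692.1 and 1043, the Sgk1 line falls from 1229.9 to 626.0, and the lines of Hsd11b1, Errfi1 and Tsc22d3 are nearly flat. Heights of different probe sets cannot be compared.

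Fkbp5 encodes FKBP51, an HSP90 cochaperone that lowers the hormone affinity of the glucocorticoid receptor and is induced by it, in a short negative feedback loop. Its brighter probe set (1388901_at) gave a signal of 248.7 when fasted and 1043 after olive oil, 4.19-fold higher. The other (1380611_at) read 160.6 and 692.1, 4.31-fold higher. The 2 probe sets thus gave log2 differences of 2.07 and 2.11, which were 0.04 apart. Over 2290 genes with several measured probe sets, the log2 differences of probe sets of 1 gene scattered with a pooled standard deviation of 0.35, so that the difference of Fkbp5 was far larger than the scatter between probe sets, a scatter that holds no variation between rats. Of 9209 measured genes, 31 had a higher difference than the brighter Fkbp5 probe set.

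The measured genes nearest to Fkbp5 in log2 difference, over these 2 arrays, were Plscr1, Gpd1l1 and Dock11. Plscr1 read 95.8 and 401.0, a log2 difference of 2.07. Gpd1l1 read 217.1 and 920.3, and Dock11 35.2 and 149.3, each with 2.08. With 1 difference per gene, likeness means only an equal size.

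Tsc22d3 encodes GILZ, a leucine zipper protein that mediates part of the anti-inflammatory action of glucocorticoids. Its probe set (1367771_at) gave 952.7 when fasted and 1261 after olive oil, 1.32-fold higher. This log2 difference of 0.40 was larger than the standard deviation of 0.23 between bright probe sets of 1 gene and close to that of 0.35 over all measured ones, and 33.1% of all measured genes differed by more in either direction. Tsc22d3 and Fkbp5 were 1.66 apart on the log2 scale in their differences, Fkbp5 having the higher one.

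Errfi1 encodes MIG6, a cytosolic inhibitor of the epidermal growth factor receptor that is induced by mitogens as well as by glucocorticoids. Its probe set (1373093_at) was bright on both arrays, at 5630.5 and 7037, 1.25-fold higher after olive oil. The log2 difference of 0.32 was exceeded in size by 42.2% of measured genes. It lay 0.08 below that of Tsc22d3. This gap was smaller than the standard deviation of 0.23 between bright probe sets of 1 gene, which holds no variation between rats.

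Hsd11b1 encodes 11-beta-hydroxysteroid dehydrogenase type 1, which regenerates active corticosterone from its inactive 11-keto form inside hepatocytes. Its probe set (1386953_at) gave 7594 when fasted and 7256 after olive oil, 1.05-fold lower. Its log2 difference of -0.07 was among the smaller ones, as 85.9% of measured genes differed by more.

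Sgk1 encodes serum- and glucocorticoid-induced kinase 1, which stimulates sodium channels and phosphorylates FOXO factors downstream of PI3 kinase. It went the other way from Fkbp5, its probe set (1367802_at) giving 1229.9 when fasted and 626.0 after olive oil, 1.96-fold lower. The log2 difference was -0.97, just inside the 2-fold limit, and it was -1.05 and past the limit when each array was centred on its median. Centring lowered all differences by the same amount, Fkbp5 going from 2.07 to 2.00, and the count of measured genes at least 2-fold lower going from 269 to 330. Of 9209 measured genes, 290 had a lower difference. Between Fkbp5 and Sgk1 the differences were 3.04 apart on the log2 scale.

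Against the spread of all genes, Fkbp5 stood outside the range of the central 95%, which ran from -1.06 to 1.10 on the log2 scale with a median of -0.01, and the other 4 stood inside it. Bright genes varied less. In the brightest 25% of the measured genes, 2303 genes that include Sgk1, Tsc22d3, Errfi1 and Hsd11b1, the central 95% ran from -0.85 to 0.97, and Sgk1 at -0.97 was outside that narrower range while Tsc22d3, Errfi1 and Hsd11b1 were inside.

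**Figure D2:**
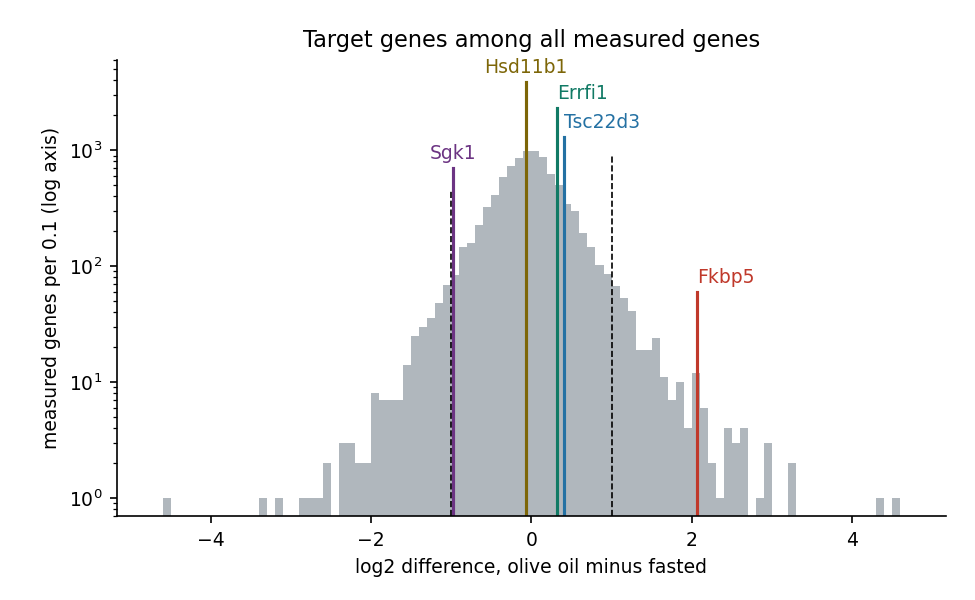
Histogram of the log2 difference, olive oil minus fasted, over 9209 measured genes (bins of 0.1, logarithmic count axis), with coloured lines at the 5 target genes and dashed lines at a 2-fold difference. Fkbp5, at 2.07, is in the sparse right tail, Sgk1, at -0.97, is beside the left dashed line, and Hsd11b1, Errfi1 and Tsc22d3 are in the centre; line heights carry no value.

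The receptor itself and the proteins that hold it differed by less than Fkbp5. So did most genes, as only 0.52% of measured genes differed by more than Fkbp5. Nr3c1, the glucocorticoid receptor gene, read 684.7 and 519.6 on its brighter probe set, a log2 difference of -0.40, but 44.9 and 70.6 on a dim one, with 0.65 in the other direction. Nr3c2, the mineralocorticoid receptor gene, went from 104.9 to 73.4, a log2 difference of -0.52. Fkbp4 encodes FKBP52, the cochaperone that replaces FKBP51 as the receptor moves to the nucleus, and it went from 1332 to 971.8, 1.37-fold lower, while Fkbp5 was higher. Of 14 measured genes for the receptors, their chaperones and nuclear import, 1 was at least 1.5-fold higher, beside 9.44% of all measured genes. It was Ipo13, an importin, at 1.63-fold. None of the 14 was at least 1.5-fold lower, beside 10.1% of all measured genes, and their median log2 difference was -0.15. Of 9 measured coregulator genes 1 was at least 2-fold lower, beside 2.92% of all measured genes. It was the corepressor gene Nrip1, which went from 286.7 to 137.6. In the FKBP family without Fkbp5, 1 of 10 measured genes was at least 1.5-fold higher, beside 9.44% of all measured genes. It was the dim Fkbp14, which read 40.0 and 65.7, and the family median was -0.07.

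Genes that handle the hormone, as Hsd11b1 does, went both ways. H6pd, the enzyme that supplies NADPH to the Hsd11b1 product in the endoplasmic reticulum, read 944.4 and 1421, a log2 difference of 0.59, while Hsd11b1 was level. Hsd11b2, which inactivates corticosterone and is mainly a kidney enzyme, was dim at 62.9 and 58.3. Serpina6, the plasma corticosteroid-binding globulin, was 1.29-fold lower, at 6865 and 5328. Of 9 measured genes in this group 1 was at least 2-fold higher and 1 lower, 11.1% each. Of all measured genes 3.21% were higher and 2.92% lower by 2-fold or more. The higher one was the P450 reductase gene Por, whose probe sets gave log2 differences of 2.47 and 2.21. The lower one was the steroid 5-beta-reductase gene Akr1d1, at -1.70 on 1 probe set but 0.01 on the other.

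Relatives and partners of Sgk1, Tsc22d3 and Errfi1 were examined in the same way. Sgk2, a kinase close to Sgk1, was also lower, from 139.0 to 38.3, 3.63-fold, but dim in the olive oil array, whereas Sgk3 was level at 125.4 and 127.4. Of 19 measured genes in the Sgk1 network 4 (21.1%) were at least 1.5-fold higher and 1 (5.26%) lower, beside 9.44% and 10.1% of all measured genes. Among them Foxo1, a transcription factor held out of the nucleus by this kinase family, was 1.84-fold higher, with a dim probe set at -1.51 on the log2 scale. The scaffold gene Nherf1 was 1.77-fold higher, and Scnn1a, a sodium channel subunit, was 2.19-fold higher but dim, at 42.6 and 93.4.

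Within the Tsc22d3 family, Tsc22d1 went from 2549 to 952.4 on its bright probe set, 2.68-fold lower, with 0.20 on the log2 scale on a dim one. Tsc22d2 differed by 0.16 and Tsc22d4 by -0.43 on the log2 scale. Egfr, the receptor that the Errfi1 product inhibits, read 1659 and 1751 on its brightest probe set, a log2 difference of 0.08. Its other measured probe sets read 1048 and 2003, with 0.93 on the log2 scale, and, on a dim one, 82.7 and 80.3, with -0.04. Of 13 measured genes in this receptor's network 4 (30.8%) were at least 1.5-fold lower and none at least 1.5-fold higher, beside 10.1% and 9.44% of all measured genes. They were Erbb3, a sister receptor, at 2.24-fold, Dusp6, a phosphatase induced by ERK signalling, at 2.23-fold, the ligand gene Tgfa at 1.65-fold and the receptor inhibitor gene Lrig1 at 1.63-fold. Dusp6 was lower on each of 3 probe sets, between -1.06 and -1.30. Tgfa, however, read 75.5 and 69.4 on a dimmer second probe set, a log2 difference of -0.12.

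**Figure D3:**
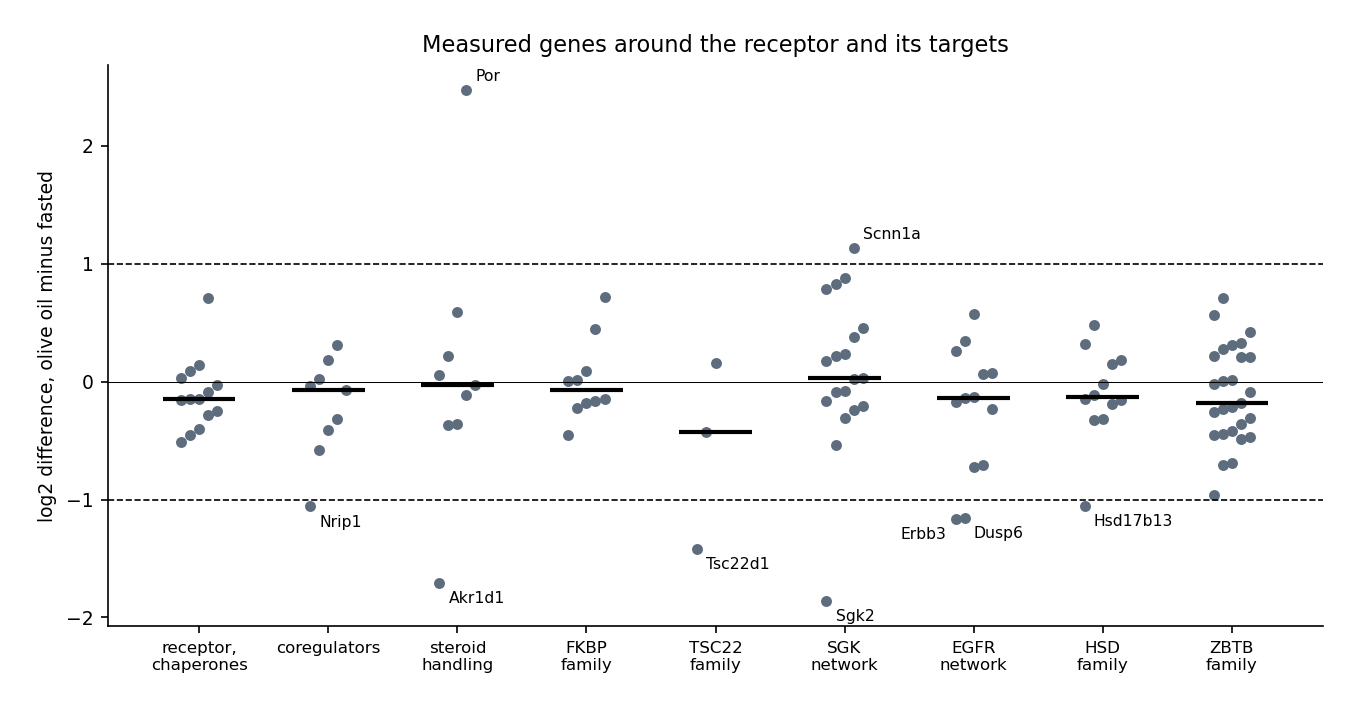
Log2 difference, olive oil minus fasted, of the measured genes in 9 groups around the receptor and its targets; each point is 1 gene on its brightest probe set, black bars are medians and dashed lines mark 2-fold. Most points lie between the dashed lines, and the labelled genes are those at least 2-fold apart, such as Por at 2.47 and Sgk2 at -1.86.

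A wider set of 36 glucocorticoid-responsive liver genes, written with earlier results of these arrays known and so no independent evidence, held genes that differed in both directions. Of 32 measured, 11 (34.4%) were higher by 2-fold or more and 2 (6.25%) lower, beside 3.21% and 2.92% of all measured genes. At 1.5-fold 18 (56.2%) were higher, beside 9.44%, and 3 (9.38%) were lower, beside 10.1%, so that the share lower was near that of all genes. The median log2 difference was 0.75, with -0.01 over all measured genes and 0.32 over the 5 target genes. The difference between this set and the target genes was not tested. The highest were Gadd45b, a stress-induced growth arrest gene, at 19.9-fold, Sds, serine dehydratase, at 9.30-fold, Ccn2, connective tissue growth factor, at 4.85-fold and Ppargc1a, a coactivator of gluconeogenesis, at 4.69-fold. Gadd45b and Ppargc1a were dim when fasted, at 39.8 and 35.0. A second Ppargc1a probe set gave 2.27 on the log2 scale, and one too dim to count as measured gave 0.34. The 2 genes of the set at least 2-fold lower, named after their values were seen, were Sesn1 and Bcl6, a repressor. Sesn1 stood at -1.65, with 0.10 on a second probe set, and Bcl6 at -1.32.

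Classical members of that set went both ways, as Fkbp5 and Sgk1 did, but not evenly. Of its 32 measured genes 27 had a positive difference and 5 a negative one, beside 4445 and 4761 of all 9209. Klf9, a Krüppel-like factor, read 1831 and 4184, 2.28-fold higher, with log2 differences of 0.64 on a second probe set and -0.53 on one that was too dim to count as measured. Tat, tyrosine aminotransferase, read 3068 and 6020, 1.96-fold higher. Dusp1, a phosphatase that inactivates MAP kinases, was lower on each of its 2 probe sets, with 3464 and 1887 on one and 922.8 and 438.5 on the other, log2 differences of -0.88 and -1.07. Per1, a clock gene, read 7.0 and 80.5, was below the floor of 12.8 in the fasted array and did not count as measured.

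**Figure D4:**
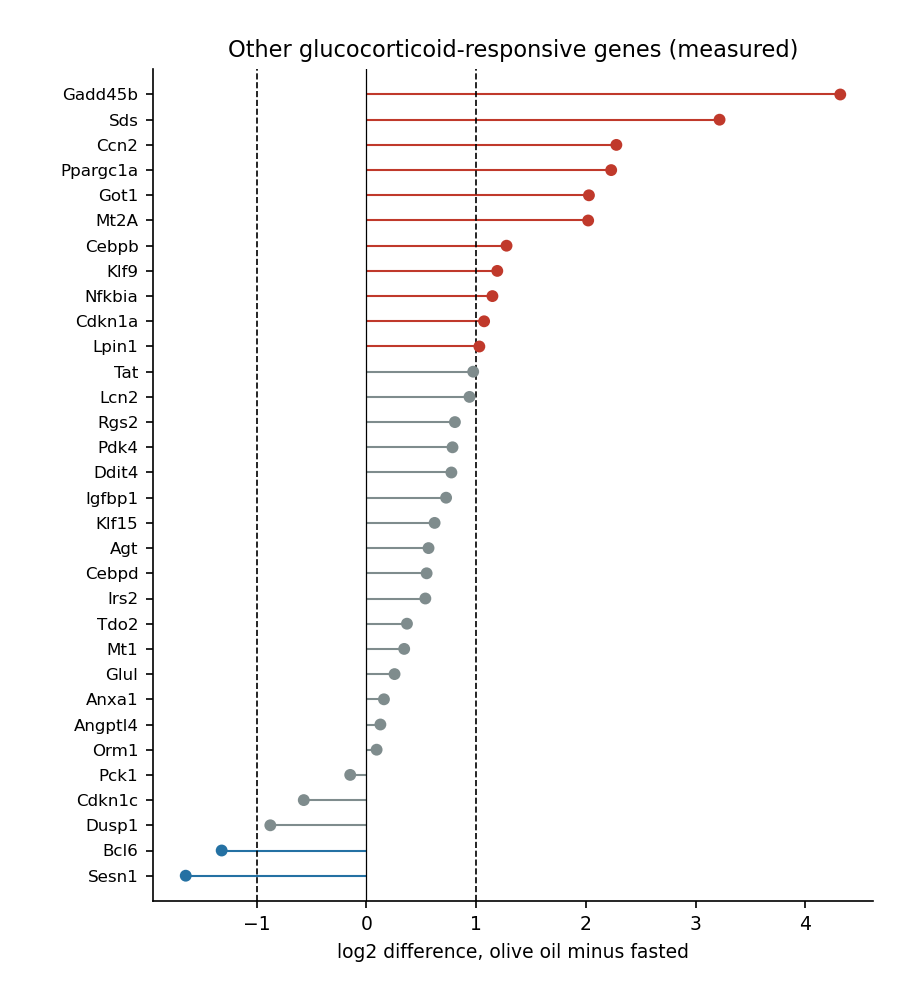
Log2 difference, olive oil minus fasted, of the 32 measured genes of the wider glucocorticoid-responsive set; points in red are at least 2-fold higher, points in blue at least 2-fold lower and dashed lines mark 2-fold. The red points number 11, up to Gadd45b at 4.32, and the blue ones 2, Bcl6 and Sesn1.

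Some markers of other cells also differed between the arrays. Of 5 adipocyte markers with a probe set, 2 were measured, with a summed signal of 193.0 when fasted and 353.1 after olive oil. Of these Fabp4 read 29.4 and 175.2, while Cfd, the brighter, was nearly level at 163.6 and 177.9. Below the filter Plin1 read 15.3 and 55.3 on 1 probe set but 11.3 and 4.4 on another, and Adipoq read 3.2 and 28.2, while the difference of Lep was -0.26 on the log2 scale. Of 10 leukocyte markers 4 were measured, with sums of 327.3 and 477.2. The neutrophil genes S100a8 and S100a9 read 32.0 and 75.7, and 62.9 and 253.1, while Ptprc, a general leukocyte gene, read 158.6 and 108.3 and the cytotoxic lymphocyte gene Gzma 73.8 and 40.1, so that 2 of the 4 were higher and 2 lower. The 8 measured Kupffer cell markers, with sums of 5065 and 5930, lay within 1.5-fold, as did 7409 of all 9209 measured genes. Measured were 10 stellate cell, 5 endothelial, 2 cholangiocyte and 2 red cell markers. None of them was at least 2-fold apart, beside 6.14% of all measured genes. At 1.5-fold 2 stellate cell markers, Dcn and Lum, were higher and 1, Lrat, was lower. The endothelial marker Lyve1 was higher by 1.5-fold or more, and the cholangiocyte and red cell markers lay within 1.5-fold. Of all measured genes 9.44% were higher and 10.1% lower by 1.5-fold or more. The part of these cells in the differences of the target genes was not tested, and in bulk liver a change in the share of a cell type cannot be told apart from a change in its RNA per cell.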

How the data were processed

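Per the submitters' processing notes the authors used Affymetrix Expression Console, with algorithm, version and filters not given in the sources used. Deposited is a linear signal intensity for each probe set, with no detection call, and trimmed means of 200.1 on both arrays point to a common scaling by the authors. The 57 control probe sets were left out of all counts. Signals below the 25th percentile, 12.8, were raised to it and log2 was taken, without further normalization. Measured means a mean log2 signal of at least 5.37, the median. A gene took its brightest probe set. A single array a group allowed no test, and the number of arrays limits the precision.

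Gene names came from the platform's annotation, which lists 1 gene for 20826 probe sets, several for 436 and none for 9780, updated by gene ID through RefSeq's GRCr8 gene table. Promoters came from RefSeq's GRCr8 sequences. The target genes, all lists and the naming rule were chosen with earlier results of these data known. The rule named the 6 target genes, 16 receptor, family and classical target genes whatever their change, up to 4 measured genes past 1.5-fold per list and the 3 genes nearest to Fkbp5. The functions were tested on simulated arrays. Alternatives were other scalings (centring, quantile, loess), floors, an offset of 16, filters, probe set rules and folds. Python 3.11.15, numpy 2.4.6, pandas 2.3.3, statsmodels 0.14.6 and matplotlib 3.10.9 were used.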

Additional observations from a re-analysis of the deposited data

How the results depend on the processing

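Over 8 alternatives of scaling, floor and probe sets the log2 difference of Fkbp5 ran from 2.00 to 2.09, of Tsc22d3 from 0.33 to 0.42, of Errfi1 from 0.25 to 0.32, of Hsd11b1 from -0.14 to -0.07 and of Sgk1 from -1.05 to -0.96. The count of target genes at least 2-fold higher stayed at 1 and that of probe sets at 2 under every alternative run. The count of target genes at least 2-fold lower, an alternative added after seeing the data, was 1 in place of 0 after centring on array medians and at 1.5-fold. In the wider set the count higher was 18 at 1.5-fold and 6 at 3-fold, in place of 11. Of all 9209 measured genes 869 and 73 were higher at these limits, in place of 296. The count lower in the wider set was 1 in place of 2 with the mean over probe sets, with a filter at the 75th percentile and at 3-fold. Over all measured genes 247 of 8664, 108 of 5505 and 49 of 9209 were lower in these 3 settings, in place of 269 of 9209. The median of the set ran from 0.57 to 0.78. Of 23 receptor, chaperone and coregulator genes 1 was past 2-fold, beside 6.14% of all measured genes. The count was 0 with an offset of 16 and at 3-fold, and 2 without a filter and at 1.5-fold. Of all 9209 measured genes 869 were higher and 931 lower at 1.5-fold, and 73 and 49 at 3-fold. With the offset 212 of 9207 genes were higher and 185 lower by 2-fold, and without a filter 802 and 680 of 14217. Apart from the fold limits and construction of each setting, the cause was not tested. No paired analysis was possible because each group is 1 array.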

Other observations

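Beyond the receptor's own circuit, 2 gene families that hold target genes were scanned by symbol. Over 12 other measured genes in the hydroxysteroid dehydrogenase family of Hsd11b1, the median log2 difference was -0.13. Of these 11 lay within 1.5-fold, beside 7409 of all 9209 measured genes. The exception was Hsd17b13, a lipid droplet protein of hepatocytes, with a signal of 3213 when fasted and 1550 after olive oil, 2.07-fold lower.

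In the ZBTB zinc finger family, to which the unmatched Zbtb16 belongs, 27 genes were measured. None of them was at least 2-fold apart and 23 lay within 1.5-fold. Of all 9209 measured genes 6.14% were at least 2-fold apart and 7409 lay within 1.5-fold. The median log2 difference of the family was -0.18. The genes past 1.5-fold were Zbtb6, which read 125.1 and 204.4, 1.63-fold higher, with 0.58 on the log2 scale on a second probe set, and Zbtb38, Zbtb34 and Zbtb47, which were 1.95-fold, 1.63-fold and 1.62-fold lower. Zbtb38 read 222.8 and 114.4. Its log2 difference was -0.96.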
